A study of Mus musculus with 16 samples.

Results

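NRF2, encoded by Nfe2l2, is a basic leucine zipper transcription factor of the cap'n'collar (CNC) family, and 10 genes that form its core circuit were followed here across mouse bone marrow. The set was given by name and consists of the CNC factor genes Nfe2l2, Nfe2l1 and Nfe2, the degradation genes Keap1 and Cul3, the repressor genes Bach1 and Bach2, and the small MAF genes Mafg, Mafk and Maff. These 10 were looked up by symbol among the 57132 genes of the count table. All 10 were found, and all 10 passed the filter on low counts that left 19152 genes for testing. Whole marrow RNA had been sequenced in 16 libraries, 2 in each of 8 groups. The KO mice were Nrf2-/- animals bred from Nrf2+/- parents, and in the labels used here neither their age nor their sex is given. The WT mice were male C57BL/6 animals of 8 to 10 weeks. Each genotype was given BMX-001 with 5-fluorouracil (5-FU), 5-FU alone, BMX-001 alone or PBS, the vehicle. BMX-001, a manganese porphyrin described in the labels as a radioprotector, was dosed at 0.5 mg/kg from 24 h before 5-FU and every 3 days afterwards. 5-FU, an inhibitor of thymidylate synthase that depletes dividing marrow cells, was dosed at 20 mg/kg with a repeat on day 7, and marrow was collected on day 10. Marrow was isolated in duplicate, and since separate animals are not stated, the p-values measure the spread between these libraries, which may be technical.

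Under basal conditions KEAP1 binds NRF2 and, as the substrate adaptor of a ubiquitin ligase built on CUL3, has it ubiquitinated and degraded by the proteasome. Oxidants and electrophiles modify cysteines of KEAP1, NRF2 then accumulates, and in the nucleus it pairs with a small MAF protein (MAFG, MAFK or MAFF) on antioxidant response elements of detoxification and antioxidant genes. The small MAF proteins carry no activation domain and are shared partners: NFE2, the CNC factor of erythroid and megakaryocytic cells, NFE2L1 (NRF1), which drives proteasome genes, and the repressors BACH1, which heme releases from DNA, and BACH2, a B cell factor, all pair with them. Because NRF2 is regulated mostly at the level of protein stability, transcript levels of its partners and of its own gene are a separate readout from its activity.

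Promoter sequences are shown for Nfe2l2, the targeted gene, and for Mafk and Mafg. For Mafk and for Mafg the 4 KO libraries with 5-FU lay below the other 12. This pattern was noticed in the data, and 1.15% of genes showed it. The sequences are taken from RefSeq on GRCm38.p6, 5′ to 3′ on the gene's own strand. They run from 250 bases before to 50 bases after the start site. Capitals mark the core of the antioxidant response element, TGACNNNGC, searched on both strands. The windows are chr2:75704614-75704913 (minus strand) for Nfe2l2, chr5:139791286-139791585 (plus strand) for Mafk and chr11:120633498-120633797 (minus strand) for Mafg.
Nfe2l2: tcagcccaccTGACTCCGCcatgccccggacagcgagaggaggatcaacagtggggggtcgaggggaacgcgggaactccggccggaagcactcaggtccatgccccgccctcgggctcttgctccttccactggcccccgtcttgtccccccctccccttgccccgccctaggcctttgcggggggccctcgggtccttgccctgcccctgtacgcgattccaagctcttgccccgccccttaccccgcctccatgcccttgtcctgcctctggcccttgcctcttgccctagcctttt
Mafk: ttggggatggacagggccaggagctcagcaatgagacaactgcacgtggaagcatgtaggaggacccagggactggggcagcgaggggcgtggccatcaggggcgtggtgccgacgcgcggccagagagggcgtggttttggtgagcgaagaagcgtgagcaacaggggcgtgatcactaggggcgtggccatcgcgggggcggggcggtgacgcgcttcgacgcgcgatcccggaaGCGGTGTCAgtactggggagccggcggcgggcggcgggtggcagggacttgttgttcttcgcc
Mafg: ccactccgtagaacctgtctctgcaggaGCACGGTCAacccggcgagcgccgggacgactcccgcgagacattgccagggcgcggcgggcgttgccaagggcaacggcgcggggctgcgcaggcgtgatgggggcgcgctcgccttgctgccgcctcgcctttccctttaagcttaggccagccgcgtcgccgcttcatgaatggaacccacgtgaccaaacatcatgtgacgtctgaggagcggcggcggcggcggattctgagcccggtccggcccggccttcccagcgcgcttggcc
The Nfe2l2 match, TGACTCCGC, begins 240 bases before the start site on the gene's strand. The Mafk match lies 13 bases before the start and reads GCGGTGTCA there, that is TGACACCGC on the opposite strand. The Mafg match lies 222 bases before the start and reads GCACGGTCA, TGACCGTGC on the opposite strand. RefSeq windows were found for 9 of the 10 genes, 15 windows in all, and Nfe2 had no entry. The core occurred in 4 windows, the fourth being 1 of 3 for Maff, and in 12.4% of the 32851 mouse promoters of the same length. The motif TGCTGAC, part of the MAF recognition element, was read in 1 gene, Nfe2l1, where 3 overlapping windows hold the same site. It occurred in 4.67% of all promoters. TGANTCA, the NFE2 and AP-1 type site, was in 0 of the 15 windows and in 7.81% of promoters, while a cyclic AMP response element, TGACGTCA, was in 1 Maff window and in 1.79% of promoters. These matches describe the letters of the windows and say nothing of binding.

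Total counts were 27305707 to 36588168 in the 8 KO libraries and 34387432 to 39909188 in the 8 WT libraries. Levels are in CPM, counts scaled to a common library total after TMM scaling of the library sizes. A gene was called where its Benjamini-Hochberg adjusted p over all genes tested was under 0.05 in edgeR's quasi-likelihood test, and each log2 fold change is given with its standard error (SE). Marker genes of marrow lineages were expressed in every library, with summed levels of 27848 to 41557 CPM for 14 granulocyte genes and 50378 to 93637 CPM for 16 erythroid genes. Xist stayed at or under 0.283 CPM, and the Y-linked Ddx3y was at 39.7 to 67.7 CPM in all 16 libraries. KO BMX-001 replicate 1 stood apart: Malat1, a noncoding RNA kept in the nucleus, was at 12200 CPM there and 2548 to 5342 CPM in the remaining 15, and Mpo, the myeloperoxidase gene, at 283 CPM there and 1385 to 2271 CPM in the remaining 15. That library and WT PBS replicate 2 also shared high immediate early transcripts, with 273 and 300.4 CPM of Fos, against 15.5 to 78.1 CPM in the other 14 libraries. The part of these differences in the results was not tested.

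To compare levels between genes, counts were divided by exon length. In KO marrow Nfe2l2 stood at 2.36 ± 0.873 CPM per kb of exon, under every member except Maff. In WT marrow the 10 genes covered a wide range. Nfe2 was the most abundant at 110 ± 5.20 CPM per kb of exon (SD, n = 8 for each gene in this paragraph). Cul3 at 31.7 ± 2.45 and Nfe2l2 at 30.6 ± 1.63 CPM per kb came next, and their difference was smaller than their spread. Mafg at 20.9 ± 1.13, Bach2 at 20.9 ± 4.79, Mafk at 18.9 ± 3.80, Bach1 at 18.2 ± 0.769 and Nfe2l1 at 17.5 ± 0.919 CPM per kb formed the next tier, in which neighbours did not differ beyond their spread. Keap1 stood below them at 11.1 ± 0.788 CPM per kb. Maff was near the floor at 0.329 ± 0.463 CPM per kb.

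**Figure D1:**
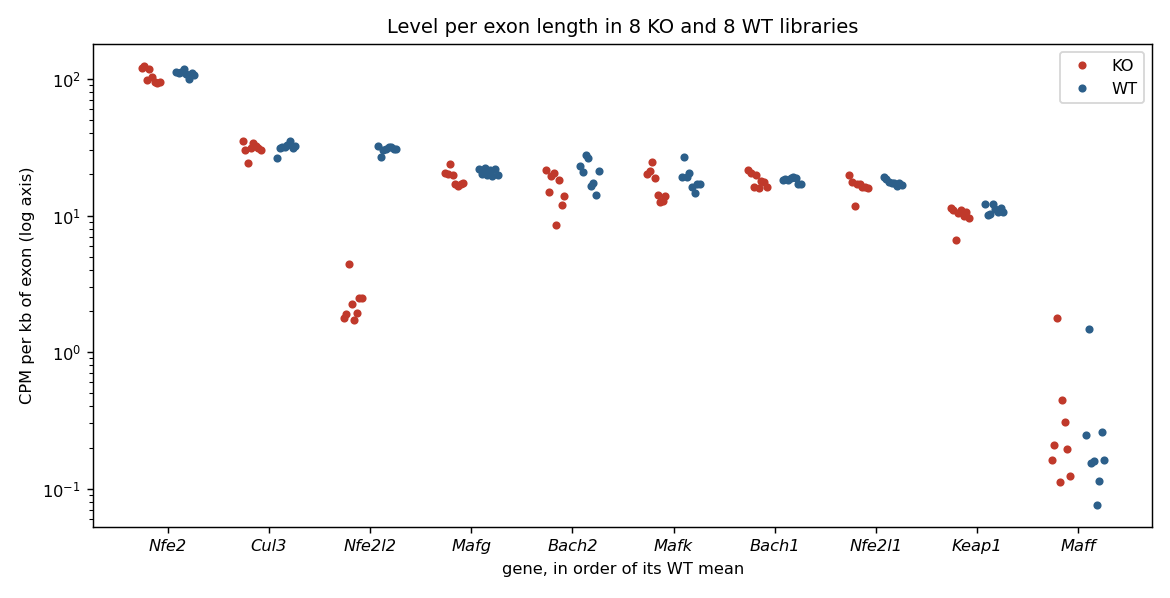
Level of each gene as CPM per kb of exon (log axis), 1 point per library, with the 8 KO libraries left of the 8 WT libraries for each gene and genes ordered by their WT mean. Nfe2l2 is the only gene whose KO and WT points form separate clouds.

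Nfe2l2, the targeted gene, was much lower in KO marrow and the other 9 members of its circuit were not called. KO marrow held 9.38 and 9.50 CPM of Nfe2l2 with both drugs, 6.48 and 7.31 with 5-FU, 16.6 and 8.55 with BMX-001 and 6.69 and 7.21 with PBS. WT marrow held 116 and 117 CPM with both drugs, 121 and 120.0 with 5-FU, 115 and 117 with BMX-001 and 122 and 102 with PBS. The highest KO library lay far below the lowest WT library, a separation that 0.11% of genes showed in the lower direction. Averaged over the 4 treatments the log2 fold change of Nfe2l2 was -3.74 ± 0.12 (adjusted p = 2.68e-09, lower in 8 of 8 KO libraries), 0.0747 times the WT level. Within treatments it was -3.62 ± 0.23 with both drugs, -4.13 ± 0.23 with 5-FU, -3.21 ± 0.22 with BMX-001 and -4.01 ± 0.23 with PBS, each called. In these 4 comparisons 0.0157%, 0.0157%, 0.0104% and 0.0261% of all genes were called, in the same order. The call with BMX-001 did not hold where its 4 libraries were fitted alone (edgeR, adjusted p = 0.650). Counts here are summed over the whole gene, so which exons gave the residual KO counts was not resolved.

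Apart from Nfe2l2, no member was called between KO and WT marrow. Nfe2l2 is the targeted gene, so its call was set by the design and is no result about the other members. The count was thus 1 of 10 members, where 0.178% of all genes were called (12 higher and 22 lower). Without KO BMX-001 replicate 1 it was again 1 of 10, where 1.39% of all genes were called. The interval of each difference bounds what these libraries allow. Keap1, the adaptor that targets NRF2 for degradation, averaged 47.3 ± 7.10 CPM in KO and 52.0 ± 3.70 CPM in WT marrow (SD, n = 8 each), with a log2 fold change of -0.14 (95% interval -0.33 to 0.046). Cul3, the scaffold of that ligase, had a log2 fold change of -0.030 (95% interval -0.17 to 0.11). Bach1, the gene of the heme-regulated competitor at the same elements, stood at -0.0031 (95% interval -0.12 to 0.11). Nfe2l1 stood at -0.094 (95% interval -0.24 to 0.053) and Nfe2 at -0.055 (95% interval -0.17 to 0.061).

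The members with the lowest unadjusted p after Nfe2l2 were Bach2 and Mafg, and neither passed the correction over all genes. Bach2 had a log2 fold change of -0.37 ± 0.15 (edgeR, adjusted p = 0.319) and Mafg of -0.14 ± 0.06 (edgeR, adjusted p = 0.319). Mafg stood at -0.19 ± 0.04 without KO BMX-001 replicate 1 and WT PBS replicate 2, and passed (edgeR, adjusted p = 0.0391), where 1.62% of all genes were called. Mafk stood at -0.15 ± 0.08 (edgeR, adjusted p = 0.438). Maff, at most 4.58 CPM in any library, gave 0.48 ± 0.53, and -0.28 ± 0.41 without KO BMX-001 replicate 1. The median over the 10 members was -0.12, against 0.0038 over all genes tested, and 9 of the 10 values were negative.

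Bach2 and markers of B lineage cells, in which BACH2 acts, both had negative values in KO marrow. KO marrow held 118 and 139 CPM of Bach2 with both drugs, 85.2 and 180.3 with 5-FU, 193 and 204 with BMX-001 and 215 and 147 with PBS. WT marrow held 141 and 210.4 CPM with both drugs, 163 and 171 with 5-FU, 277 and 260.2 with BMX-001 and 229.9 and 207 with PBS. The genotypes overlapped, and the 2 KO libraries with 5-FU lay at 85.2 and 180.3 CPM. The summed level of 14 B lineage genes, all detected, was 748 to 1197 CPM in KO and 1043 to 1590 CPM in WT marrow. With edgeR 0 of the 14 were called, and 12 had an unadjusted p under 0.05 (2440 of all 19152 genes did). DESeq2 called 7 of the 14, where it called 349 of all genes, and limma voom called 0, where it called 19. All 14 had negative log2 fold changes, and their median was -0.36. Across the 15 libraries without KO BMX-001 replicate 1, the genes whose log2 CPM ran closest to Bach2 were Cecr2, Nuak1 and Rag2, the recombinase gene of developing lymphocytes, with Pearson r of 0.975, 0.969 and 0.967 among 9328 genes. The part of the B lineage values in the Bach2 value was not tested, and in whole marrow fewer cells of a type and less RNA per cell cannot be told apart.

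**Figure D2:**
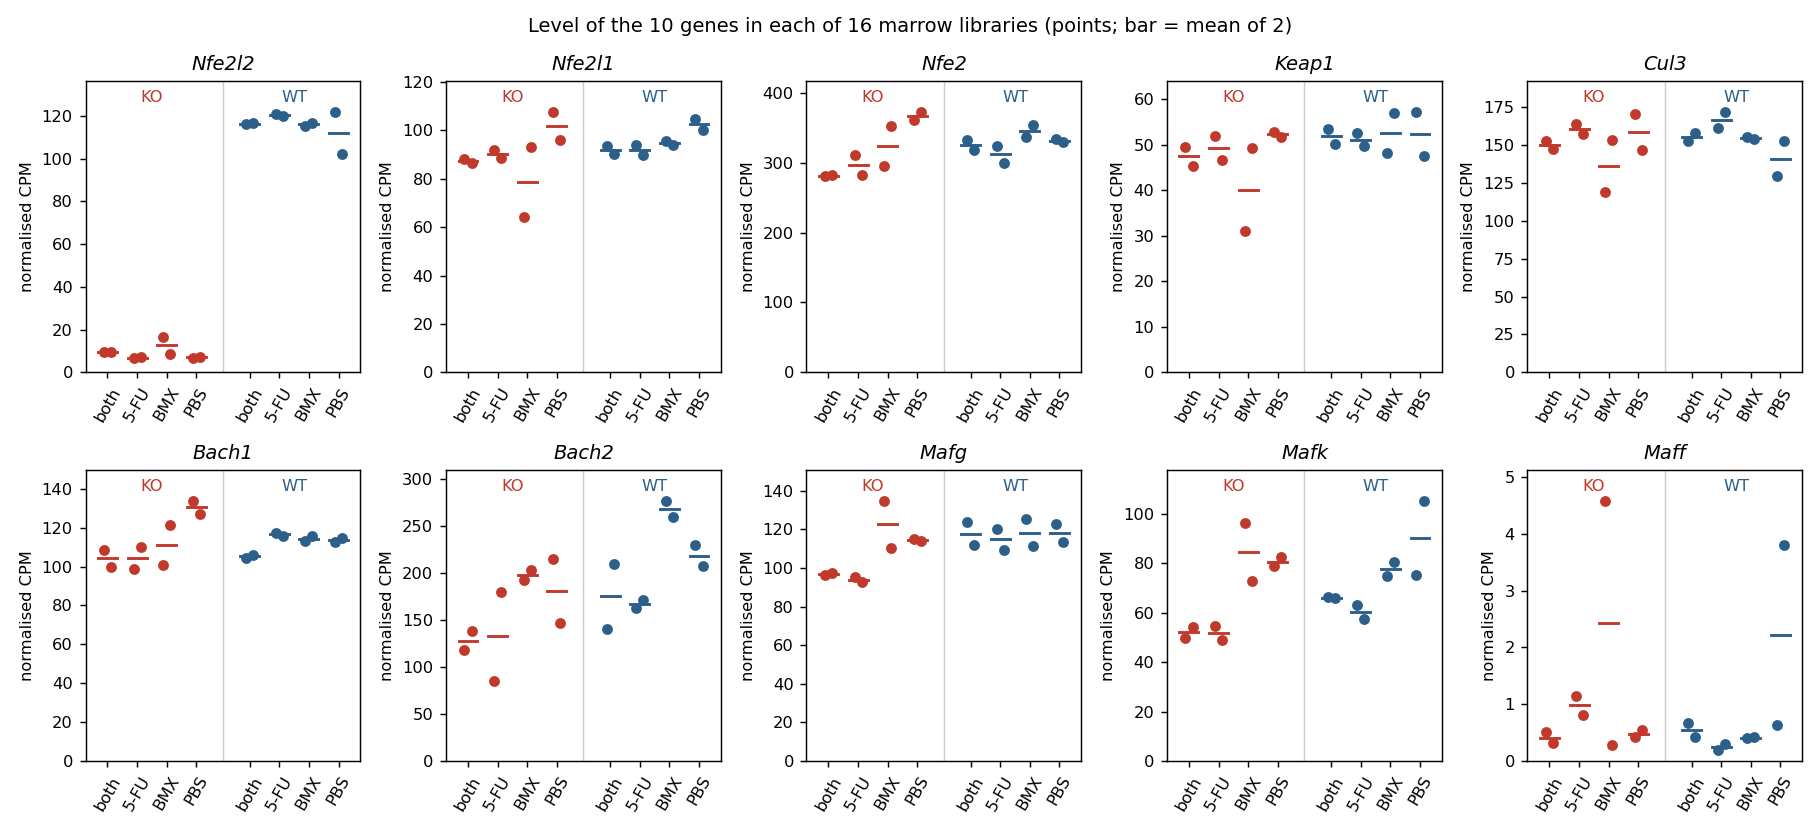
Level of each of the 10 genes in normalised CPM, 1 point per library and a bar at the mean of 2, for both drugs, 5-FU, BMX-001 and PBS, with KO left of WT. Nfe2l2 separates the genotypes at 6.48 to 16.6 CPM in KO and 102 to 122 CPM in WT, while the other 9 genes overlap.

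Some targets of NRF2 were lower in KO marrow. Of 28 NRF2 target genes, 5 were lower in KO marrow and 0 were higher, where 0.178% of all genes were called, with a median log2 fold change of -0.15 over the list and 0.0038 over all genes. Of these 28, 7 were lower and 0 higher without KO BMX-001 replicate 1, where 1.39% of all genes were called. Pir (pirin) fell by 1.42 ± 0.09 on the log2 scale and Srxn1, the sulfiredoxin gene, by 1.09 ± 0.11. Nqo1, the quinone reductase gene, changed by -0.63 ± 0.07 and Gclc, the gene of the catalytic subunit of glutamate-cysteine ligase, by -0.37 ± 0.06. The fifth, Txnrd1, thioredoxin reductase, changed by -0.37 ± 0.06 and is named after its value was seen. Of 10 BACH1 target genes 1 was called, Nqo1, which is on both lists. Of 24 tested regulators of the CNC factors, such as Sqstm1, Btrc, Gsk3b, Syvn1 and Crebbp, 0 were called by edgeR, DESeq2 or limma voom, and 3 had an unadjusted p under 0.05 in edgeR, as did 2440 of all 19152 genes, a like share. Their median was -0.053, with 3 values positive and 21 negative.

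**Figure D3:**
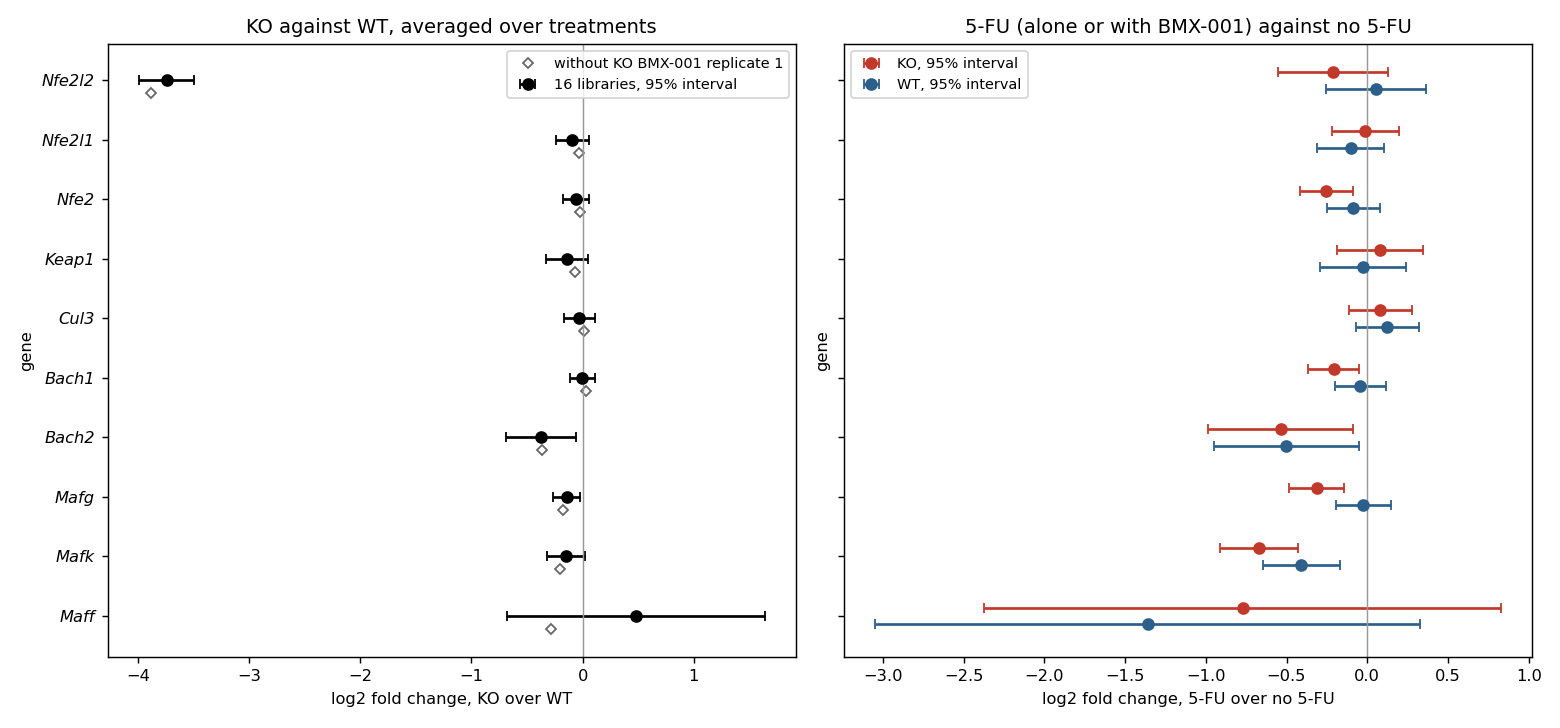
Log2 fold changes of the 10 genes with 95% intervals. Left, KO over WT averaged over 4 treatments, with open diamonds for the fit without KO BMX-001 replicate 1. Right, 5-FU over no 5-FU within KO (red, upper) and WT (blue, lower). Nfe2l2 lies at -3.74 on the left and Mafk, at -0.67 in KO and -0.41 in WT, is the lowest narrow interval on the right.

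After 5-FU the member that changed was Mafk, a small MAF partner shared by all the CNC and BACH factors, and it was lower. KO marrow held 49.7 and 54.3 CPM of Mafk with both drugs and 54.8 and 48.8 with 5-FU, against 96.4 and 73.1 with BMX-001 and 78.8 and 82.5 with PBS. WT marrow held 66.3 and 65.9 CPM with both drugs and 63.2 and 57.4 with 5-FU, against 75.0 and 80.5 with BMX-001 and 75.1 and 105 with PBS. All 8 libraries from 5-FU-treated mice therefore lay below all 8 from mice without 5-FU, a separation shown in the lower direction by 0.533% of genes. Mafk averaged 57.6 ± 6.91 CPM with 5-FU and 83.3 ± 11.5 CPM without it (SD, n = 8 each).

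Averaged over genotypes, Mafk changed by -0.54 ± 0.08 on the log2 scale after 5-FU (edgeR, adjusted p = 0.00220), 0.688 times the level without 5-FU. It was the only one of the 10 members called in that comparison, in which 2.95% of all genes were called (107 higher and 458 lower). Within KO marrow the log2 fold change was -0.67 ± 0.11 (edgeR, adjusted p = 0.00658), again the only member called, where 1.9% of all genes were called. A gap of this direction between the 4 KO libraries with 5-FU and the 4 without it was shown by 4.44% of genes. Within WT marrow it was -0.41 ± 0.11 and missed the threshold (edgeR, adjusted p = 0.226), where 0.0574% of genes were called. It was -0.28 ± 0.10 without WT PBS replicate 2 (edgeR, adjusted p = 0.642). Without KO BMX-001 replicate 1 the WT value was -0.41 ± 0.09 and passed (edgeR, adjusted p = 0.0289), where 1.94% of genes were called. In the same 15 libraries 3 members, Mafk, Nfe2 and Bach1, were called lower over both genotypes, where 8.16% of genes were called, and the same 3 in KO, where 3.49% were. The difference between genotypes itself was -0.26 ± 0.16 (edgeR, adjusted p = 0.691, with 0% of genes called), so that a genotype difference in the Mafk change was not shown.

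Without the libraries of highest Fos level, KO BMX-001 replicate 1 and WT PBS replicate 2, Mafk still changed by -0.42 ± 0.04 over both genotypes (edgeR, adjusted p = 2.22e-05), where 7.67% of genes were called. These 2 libraries were also the 2 highest for Mafk. The KO call did not hold where KO libraries were fitted alone (adjusted p = 0.0720) or without KO replicate 1 of both drugs (edgeR, adjusted p = 0.0547). The log2 fold change after 5-FU alone against PBS was -0.64 ± 0.16 in KO (adjusted p = 0.119) and -0.58 ± 0.16 in WT marrow (adjusted p = 0.141), where 0.454% and 0.00522% of genes were called. Without KO BMX-001 replicate 1 both passed (adjusted p = 0.0112 in KO and 0.0152 in WT), where 2.82% and 6.87% of genes were called, and Nfe2 and Bach1 were then also called in KO and Maff in WT. The WT value after 5-FU alone was -0.32 ± 0.15 without WT PBS replicate 2 (edgeR, adjusted p = 0.623). Tmem184a, which overlaps 169 exonic bases of Mafk on the opposite strand, was at most 0.341 CPM in any library.

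Mafg, the other abundant small MAF gene, had its lowest levels in KO marrow with 5-FU, and the difference was not called. KO marrow held 96.1 and 97.4 CPM of Mafg with both drugs and 95.2 and 92.8 with 5-FU, against 135 and 111 with BMX-001 and 115 and 114 with PBS. WT marrow held 124 and 112 CPM with both drugs and 120.3 and 109 with 5-FU, against 125 and 111 with BMX-001 and 123 and 114 with PBS. The 4 KO libraries with 5-FU lay below the other 12 for both Mafg and Mafk, a pattern noticed in the data that 1.15% of genes showed. The log2 fold change of Mafg was -0.31 ± 0.08 in KO (edgeR, adjusted p = 0.0716) and -0.024 ± 0.08 in WT marrow (edgeR, adjusted p = 0.953). DESeq2 called the KO value (adjusted p = 0.00787), where it called 4.76% of genes, as did edgeR without the 2 libraries of highest Fos level (adjusted p = 0.0401), where 4.08% were called. The difference between genotypes was -0.29 ± 0.11, with an unadjusted p of 0.0229 in edgeR that 1300 of 19152 genes passed and an adjusted p of 0.689. For that difference edgeR and limma voom called 0 genes and DESeq2 called 27, Mafg not among them. Sirt7 shares 124 exonic bases with Mafg on the same strand and was at 44.1 to 70.3 CPM. How reads in the shared bases were assigned is not stated, so that either count may be affected. Both genes were highest in KO BMX-001 replicate 1.

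Maff, the inducible small MAF gene, was at 0.20 to 1.15 CPM in 14 libraries. The exceptions were KO BMX-001 replicate 1 at 4.58 CPM and WT PBS replicate 2 at 3.80 CPM, the 2 libraries of highest Fos level, while their group partners stood at 0.29 and 0.64 CPM. The summed level of 18 immediate early genes was 2666 and 2757 CPM in these 2 libraries, against 808 to 1304 CPM in the other 14. The log2 fold change of Maff after 5-FU was -1.07 ± 0.53 with all libraries and 0.14 without these 2. With all 16 libraries no change of Maff was called in any of the 15 comparisons. Without KO BMX-001 replicate 1, the value after 5-FU alone in WT, -3.15 ± 0.71, was called (edgeR, adjusted p = 0.0262), and it was -1.35 ± 1.14 without WT PBS replicate 2 (edgeR, adjusted p = 0.793).

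**Figure D4:**
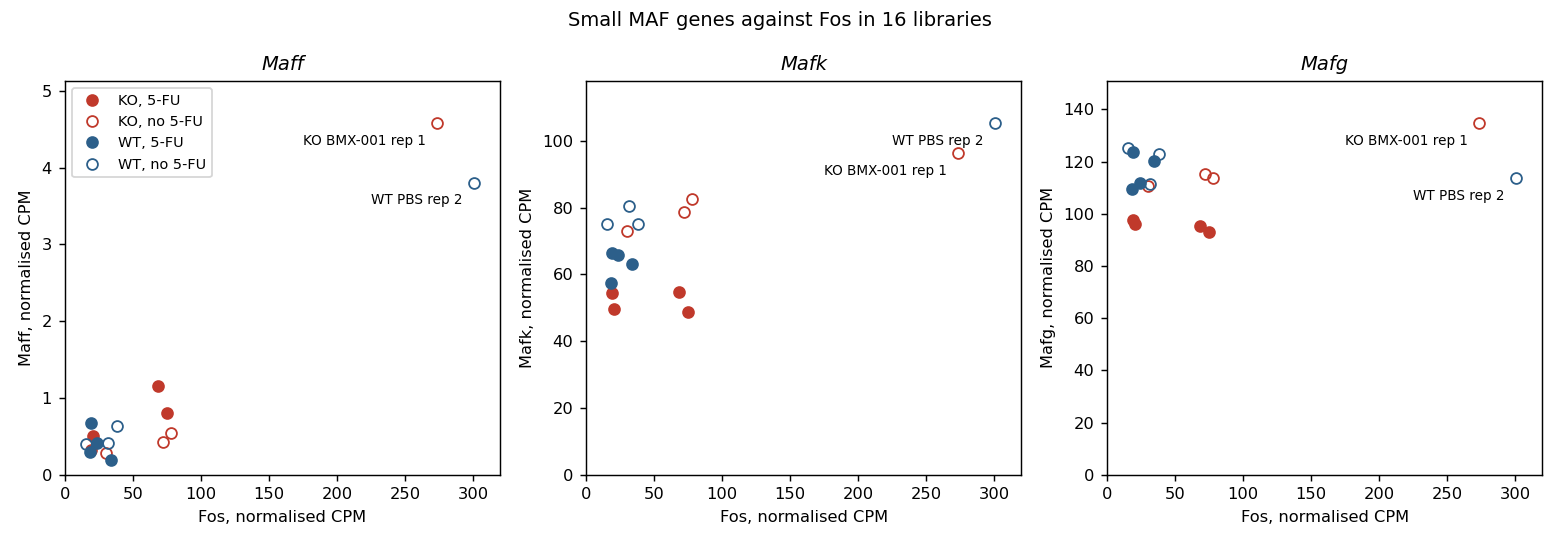
Maff, Mafk and Mafg against Fos, all in normalised CPM, 1 point per library (red KO, blue WT, filled with 5-FU, open without). The 2 libraries at 273 and 300.4 CPM of Fos are the highest for Maff and for Mafk, and Mafg is highest in the KO one only.

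Nfe2, the CNC factor gene of erythroid and megakaryocytic cells, was lower after 5-FU in KO marrow when KO BMX-001 replicate 1 was left out. KO marrow held 281 and 282 CPM of Nfe2 with both drugs and 311 and 283 with 5-FU, against 296 and 353 with BMX-001 and 361 and 372 with PBS. WT marrow held 333 and 318 CPM with both drugs and 325 and 299.7 with 5-FU, against 337 and 353 with BMX-001 and 333 and 329 with PBS. The log2 fold change in KO was -0.25 ± 0.08 with all libraries (edgeR, adjusted p = 0.126) and -0.31 ± 0.06 without that library (edgeR, adjusted p = 0.00604), where 3.49% of all genes were called. In WT marrow it was -0.086 ± 0.08 (edgeR, adjusted p = 0.776), and the difference between genotypes was -0.17 ± 0.11 (edgeR, adjusted p = 0.693).

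Erythroid transcripts were lower in the same libraries. Of 16 erythroid markers, all detected in every library, 11 were called lower after 5-FU in KO, 0 in WT and 12 over both genotypes, with medians of -0.60, -0.33 and -0.47. These counts stand against 1.9%, 0.0574% and 2.95% of all genes called in either direction. In WT 10 of the 16 had an unadjusted p under 0.05, as did 1828 of all 19152 genes. There 9 of the 16 were called by DESeq2 and by limma voom, which called 225 and 425 of all genes. Their summed level was 56343 to 68097 CPM in KO marrow with 5-FU, against 82832 to 93637 CPM in KO marrow without it. In WT marrow it was 50378 to 68107 CPM with 5-FU, against 63004 to 90859 CPM without it. The part of this in the Nfe2 and Mafk values was not tested. The genes closest to Nfe2 across 15 libraries were Cln8, Slc7a5 and Car2, carbonic anhydrase 2 of red cells, with Pearson r of 0.958, 0.945 and 0.944. Those closest to Mafk were Tprgl, Ppp1r15a and H3f3a, with r of 0.968, 0.958 and 0.956. The 12 tested NFE2-dependent megakaryocyte and platelet genes had 0 calls by edgeR, DESeq2 or limma voom in either genotype after 5-FU, with 0 in KO and 1 in WT at an unadjusted p under 0.05, and all 12 log2 fold changes were positive in both. Among the libraries without 5-FU, KO BMX-001 replicate 1 and WT PBS replicate 2 were the lowest of all 16 for this list. Its 13 genes summed to 209 and 255 CPM there, against 391 to 1185 CPM in the others. The part of these libraries in the positive signs was not tested.

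Bach1 and Bach2 had negative values after 5-FU that were not called. Bach1 stood at 98.9 to 109.9 CPM in the 4 KO libraries with 5-FU, against 101 to 134 CPM in the 4 KO libraries without it, a log2 fold change of -0.21 ± 0.07 (edgeR, adjusted p = 0.188). Without KO BMX-001 replicate 1 the value was -0.27 ± 0.06 and passed the threshold (edgeR, adjusted p = 0.0135). In WT marrow Bach1 stood at 104 to 118 CPM with 5-FU, against 112 to 116 CPM without it (-0.042 ± 0.07). Bach2 averaged 151 ± 38.9 CPM with 5-FU and 217 ± 40.3 CPM without it over both genotypes (SD, n = 8 each), which gave a log2 value of -0.52 ± 0.15 (edgeR, adjusted p = 0.0831) that DESeq2 called (adjusted p = 0.0068), where it called 6.12% of genes. The value was -0.54 ± 0.21 in KO and -0.50 ± 0.21 in WT. B lineage markers summed to 748 to 1104 CPM with 5-FU and 803 to 1197 CPM without it in KO, and to 1043 to 1290 CPM with 5-FU and 1280 to 1590 CPM without it in WT. Of these 14 markers 2, Vpreb3 and Blnk, were called lower over both genotypes by edgeR, where 2.95% of all genes were called in either direction.

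**Figure D5:**
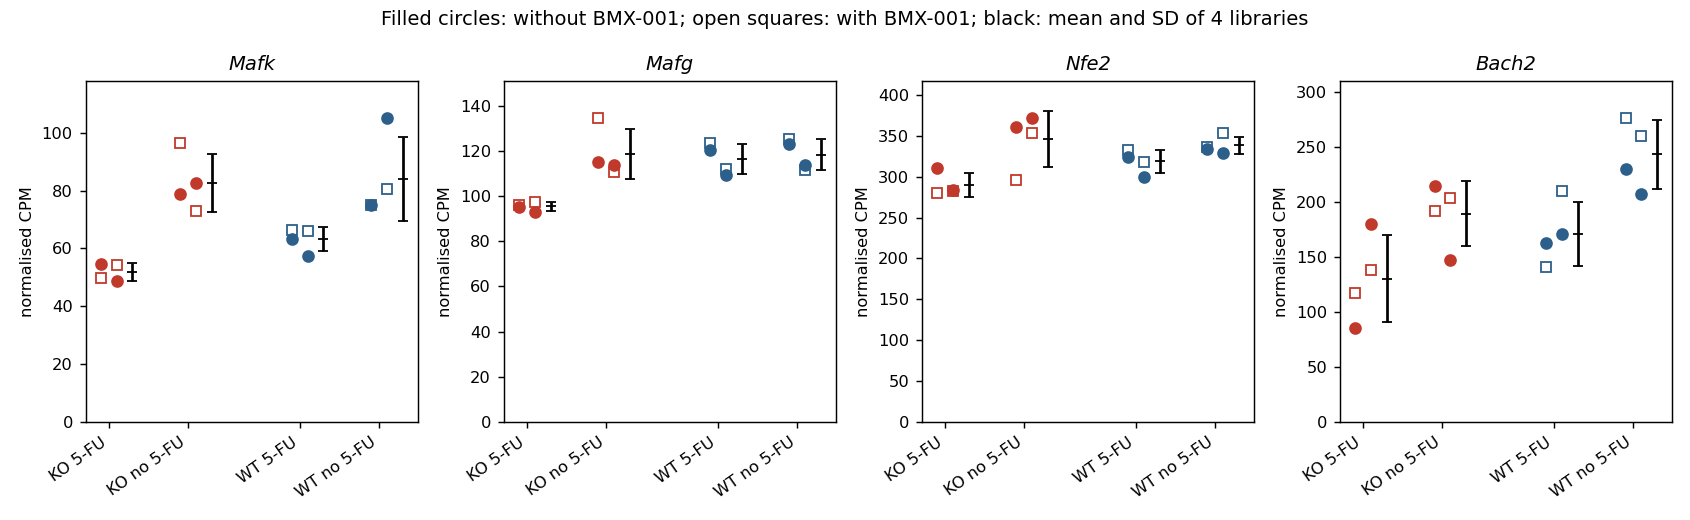
Normalised CPM of Mafk, Mafg, Nfe2 and Bach2 with and without 5-FU in KO and WT marrow, 1 point per library (squares with BMX-001, circles without) and the mean and SD of 4 in black. Mafk with 5-FU lies at 48.8 to 66.3 CPM in both genotypes, below 73.1 to 105 CPM without it, and Mafg is lower with 5-FU in KO at 92.8 to 97.4 CPM.

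The remaining members were not called after 5-FU. Nfe2l2 itself stood at 116 to 121 CPM in the 4 WT libraries with 5-FU, against 102 to 122 CPM in the 4 without it, a log2 fold change of 0.054 (95% interval -0.26 to 0.36). Over both genotypes Keap1 had a log2 fold change of 0.025 (95% interval -0.16 to 0.21) and Cul3 of 0.10 (95% interval -0.037 to 0.24). That of Nfe2l1 was -0.057 (95% interval -0.20 to 0.091), although its 4 WT libraries with 5-FU, at 89.9 to 93.9 CPM, lay just below the 4 without it, at 94.2 to 105 CPM, as did 4.5% of genes. Over both genotypes 8 of the 10 members had negative values, with a median of -0.15 against 0.014 over all genes.

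Few targets of the circuit were called after 5-FU. Of the 28 NRF2 target genes 1 was higher and 0 were lower in KO, 0 were called in WT, and 1 was higher and 1 lower over both genotypes, with medians of 0.014, -0.073 and -0.058. Of all genes 1.9%, 0.0574% and 2.95% were called, and counts this small among 28 genes were not tested against those shares. In WT 3 of the 28 had an unadjusted p under 0.05, as did 1828 of all 19152 genes, a like share. There DESeq2 called 0 of the 28 and limma voom 1, where they called 225 and 425 of all genes. The gene higher in KO was Me1, the cytosolic malic enzyme gene, at 1.39 ± 0.30 (edgeR, adjusted p = 0.0282), which missed the threshold without KO BMX-001 replicate 1 (edgeR, adjusted p = 0.0558). Over both genotypes Srxn1 rose by 0.48 ± 0.11 and Gclm, the gene of the modifier subunit of glutamate-cysteine ligase, fell by 0.29 ± 0.07 on the log2 scale. Of the 10 BACH1 target genes 3 were lower and 0 higher over both genotypes. They were Gclm, Alas2, the erythroid gene for the first enzyme of heme synthesis (-0.59 ± 0.07), and Slc48a1, a heme transporter gene (-0.39 ± 0.06). In KO marrow Alas2 (-0.64 ± 0.11) and Slc48a1 (-0.44 ± 0.09) were called lower and Me1 higher, where 1.9% of all genes were called. Me1 and Gclm are on both the NRF2 and the BACH1 target lists. Alas2 is an erythroid gene, and the erythroid values above stand beside it.

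A few regulators of the circuit outside the 10 genes were lower after 5-FU. Of the 24 tested, 3 were called lower after 5-FU in KO, 0 in WT and 4 over both genotypes, and 0 were called higher, where 1.9%, 0.0574% and 2.95% of all genes were called in either direction. Over both genotypes Sqstm1, whose p62 product sequesters KEAP1, changed by -0.44 ± 0.06 and Syvn1, an endoplasmic reticulum ubiquitin ligase gene, by -0.33 ± 0.06. Btrc, the F-box gene of another ligase that degrades NRF2, changed by -0.32 ± 0.06 and Prkcd, a kinase that phosphorylates NRF2, by -0.31 ± 0.07. The median of the list was -0.0093 over both genotypes, against 0.014 over all genes. In WT 3 of the 24 had an unadjusted p under 0.05, as did 1828 of all 19152 genes. There DESeq2 called 1 of the 24 and limma voom 2, where they called 225 and 425 of all genes. Among 18 other BTB adaptors and cullins, Cul4a and Klhl12 were lower in KO (-0.35 ± 0.07 and -0.36 ± 0.07), and among 9 large MAF and related factors 0 were called by edgeR, DESeq2 or limma voom, with 3 at an unadjusted p under 0.05, as were 3294 of all 19152 genes.

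For the other members the closest genes across the 15 libraries had lower r, apart from those of Maff. Those of Nfe2l1 were Stat6, Lgals3 and Poldip3, with Pearson r of 0.943, 0.934 and 0.926. Those of Keap1 were Slc7a7, Taco1 and Hist1h4b (0.911, 0.878 and 0.83), and those of Cul3 were Ppp6c, Cul4b, another cullin gene, and Chm (0.88, 0.872 and 0.864). Bach1 ran closest to Wipf2, Ep300, a histone acetyltransferase gene, and Ipmk (0.927, 0.916 and 0.905). Mafg ran closest to Irf9, an interferon response gene, Rnf145 and Galnt10 (0.915, 0.911 and 0.905). Those of Maff, whose level in these libraries stood out in WT PBS replicate 2 alone, were Yrdc, Med10 and Taf11 (0.956, 0.927 and 0.922). Those of Nfe2l2, for which the points split by genotype, were Cd5l and the targets Nqo1 and Srxn1 (0.928, 0.903 and 0.887). Leaving out KO BMX-001 replicate 1 moved some of these r values. Over all 16 libraries r was 0.216 for Mafg with Galnt10 and 0.506 for Cul3 with Chm. It was 0.589 for Nfe2l1 with Stat6 and 0.701 for Nfe2l2 with Cd5l. The genes named for Keap1 had higher r over all 16 (0.981, 0.975 and 0.966), as did those of Maff.

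No member of the 10 was called after BMX-001, whether given alone or added to 5-FU, in either genotype. At most 0.00522% of all genes were called in any of these comparisons, which is 1 gene, after BMX-001 alone in KO. At an unadjusted p under 0.05 there were 5 members after BMX-001 alone in KO, where 5859 of all genes passed, 1 in WT, and 0 in either genotype when it was added to 5-FU. DESeq2 called 1 member, Nfe2l2 after BMX-001 alone in KO (adjusted p = 0.0112), where it called 9.18% of genes, and limma voom called 0. The smallest member p came from residual Nfe2l2 in KO marrow after BMX-001 alone, with a log2 fold change of 0.85 ± 0.22 (edgeR, adjusted p = 0.0836). It was 0.30 ± 0.13 without KO BMX-001 replicate 1 (edgeR, adjusted p = 0.536), a value moved mostly by 1 library. With 5-FU present the BMX-001 change of residual Nfe2l2 in KO was 0.45 ± 0.22, with an unadjusted p of 0.0627 in edgeR. The 4 KO libraries with BMX-001 (8.55 to 16.6 CPM) lay above the 4 without it (6.48 to 7.31 CPM), a pattern noticed in the data that 5.73% of genes showed in the higher direction. In WT marrow Nfe2l2 averaged 116 ± 0.644 CPM with BMX-001 and 116 ± 9.40 CPM without it (SD, n = 4 each).

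The partners and repressors of NRF2 had no called difference after BMX-001 either. In WT marrow after BMX-001 alone Keap1 had a log2 fold change of 0.0075 (95% interval -0.37 to 0.38), Cul3 of 0.13 (95% interval -0.14 to 0.41), Bach1 of 0.0087 (95% interval -0.22 to 0.23) and Mafg of 0.00075 (95% interval -0.24 to 0.24). Bach2 was at 260.2 to 277 CPM with BMX-001 and 207 to 229.9 CPM with PBS, a log2 fold change of 0.30 (95% interval -0.33 to 0.93). In KO marrow Keap1 was at 30.9 and 49.3 CPM with BMX-001 and 52.9 and 51.7 CPM with PBS, and its log2 fold change was -0.38 ± 0.17 (edgeR, adjusted p = 0.161), or -0.085 ± 0.12 without KO BMX-001 replicate 1. Cul3 and Nfe2l1 were likewise lowest in that library, at 119 and 64.2 CPM.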

How the data were processed

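The deposited values are unnormalised read counts by Ensembl gene, whole numbers for 57132 genes in a column for each library (0 unused columns). The submitters' processing notes list the build GRCm39, featureCounts, Salmon 1.4.0, Trim Galore 0.6.4, DESeq2 1.38.3, FastQC 0.12.1 and R 4.3.0. Strand setting, aligner and annotation release were not given in the sources used here, so reads of overlapping genes on opposite strands may not be told apart. Symbols were joined by Ensembl ID (51880 IDs matched, and 224 of 225 list symbols), and exon lengths come from GENCODE on GRCm38.

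The tests were run with edgeR 4.0.16 in R 4.3.3. Low-count genes were dropped by filterByExpr, library sizes were scaled with TMM, and 8 group means were fitted to all 16 libraries with robust quasi-likelihood, which leaves 8 residual degrees of freedom. P-values were adjusted over all 19152 genes within each of 15 comparisons. All fold changes are the fitted log2 values from this model, and every adjusted p is from it unless another tool is named. Alternatives were RLE size factors, no filter, DESeq2 1.42.0, voom with quality weights in limma 3.58.1, a replicate block, the compared groups alone, and each library left out. A fit to 14 libraries, without the 2 of highest Fos level, was added after seeing the data. Replicates of a group differed beyond sampling noise, at a chi-square of 8.09 to 130.3 per degree of freedom, so that none was treated as a duplicate.

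The 10 genes, the lists of pathway and marker genes and the set-aside library were chosen with earlier results of these data known. All 10 genes are named in the comparisons they bear on, with up to 4 called genes of a list by smallest p, and the 3 genes of highest Pearson r of log2 CPM with a member among genes with a mean of at least 3. The r values describe libraries that share groups and carry no test.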

Additional observations from a re-analysis of the deposited data

Results flagged for a closer look

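For each gene the highest and lowest of the 8 libraries of a genotype were compared with the rest (20 groups, of which chance flags about 1 in 20), and 7 values stood far from the others. Of these 7, 4 were in KO BMX-001 replicate 1: Nfe2l2 at 16.6 CPM with the next KO library at 9.50, Maff at 4.58 with the next at 1.15, Keap1 at 30.9 with the next at 45.4, and Cul3 at 119 with the next at 147. That library also had 12200 CPM of Malat1, and the part of this in its values was not tested. In WT marrow Nfe2l2 at 102 CPM in PBS replicate 2 lay below the next library at 115, and Maff at 3.80 CPM in the same library lay above the next at 0.67. Cul3 at 129 CPM in WT PBS replicate 1 lay below the next library at 153.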

How the results depend on the processing

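The counts of members called in this section describe how far the calls moved with the processing. Most stand without the share of all genes called in the same fit, so they are not a result about the 10 genes. RLE size factors called the same number of the 10 genes as TMM in each of the 15 comparisons. That number moved past 1.5 times in 27 other repeats and in 17 with a library left out, and did not in 75 and 223. Without the low-count filter it was 2 for KO against WT averaged, 2 in PBS, 3 with BMX-001 and 2 with 5-FU, then 2 after 5-FU in KO, 3 in WT and 3 averaged, 1 after 5-FU alone in KO and 2 in WT, and 2 after BMX-001 alone in KO and 1 in WT. DESeq2 called 3 after 5-FU in KO and 3 averaged, 1 after 5-FU alone in KO and 2 in WT, and 1 after BMX-001 alone in KO. Voom called 1 after 5-FU in WT and 1 after 5-FU alone in either genotype. With only the groups compared there were 0 after 5-FU in KO, 1 after 5-FU alone in KO, and 0 for KO against WT with BMX-001. Over all genes DESeq2 called 349 for KO against WT averaged and 912, 225 and 1172 after 5-FU in KO, in WT and averaged, and voom 19, 126, 425 and 491, against 34, 364, 11 and 565 for the main test. Replicate numbers did not pair the libraries, since same-numbered libraries deviated together (r over 0.1) in 6 of 28 pairs of groups. With the replicate block 2 genes, Mafk and Mafg, were called after 5-FU in KO, and it changed no other count.

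The fit to 14 libraries called 2 for KO against WT averaged, 4 after 5-FU in KO, 3 averaged and 3 after 5-FU alone in KO. Among log2 values larger than their SE with all libraries it turned Mafk to 0.10 for KO against WT in PBS and 0.051 for BMX-001 alone in WT, Maff to -0.49 for KO against WT with BMX-001, 0.75 and 0.14 after 5-FU in KO and averaged and -0.74 after BMX-001 alone in KO, and Nfe2l2 to 0.067 after 5-FU in KO and 0.074 for its genotype difference. The cause was not tested. With each library left out in turn the number called ran from 1 to 3 for KO against WT averaged, 1 to 6 with BMX-001, 0 to 5 after 5-FU in KO, 0 to 1 in WT, 0 to 3 for the genotype difference, 1 to 6 averaged, 0 to 3 and 0 to 2 after 5-FU alone in KO and in WT, and 0 to 7 after BMX-001 alone in KO. Most upper ends came when KO BMX-001 replicate 2 was left out, so that replicate 1 stood for its group by itself and was assumed to vary like the other groups. Among those same values the log2 ranges that crossed 0 were -0.38 to 0.10 for Mafk and -0.96 to 0.11 for Bach2 in KO against WT (PBS and 5-FU), -0.49 to 3.46 for Maff with BMX-001, -0.40 to 0.067 for Nfe2l2 and -1.22 to 0.75 for Maff after 5-FU in KO, -0.46 to 0.014 for the Nfe2l2 genotype difference, and -0.45 to 0.051 for Mafk in WT and -0.74 to 3.21 for Maff in KO after BMX-001 alone. The Mafk call averaged over genotypes held in all 16 of these fits (adjusted p 3.4e-05 to 0.0115) and in each other alternative run, and that in KO held in 15 of 16. With 2 libraries a group, the intervals given above are for single genes and are not limits of detection after correction over all genes. Some differences whose interval left out 0 were not called, such as Mafk after 5-FU in WT (95% interval -0.65 to -0.17).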
